A study of Ovis aries with 17 samples.

Results

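The genes described here are those whose signal in sheep separated 4 myeloid cell subsets from B lymphocytes and plasmacytoid dendritic cells (pDC) on every array. Each signal is the log2 intensity of a probe minus the 75th percentile of its array, so that 0 marks a probe as bright as that percentile. A gene was retained when its probe was well above background on all 10 arrays of macrophages (MP), MoDC, cDC2 and cDC1 and when its lowest signal there exceeded its highest signal on the 7 arrays of B cells and pDC by at least 1, that is 2-fold. This distance is called the gap. CD14, BATF3, ADORA3, ACVR1 and ABHD5 were left out by definition. The rule kept 105 of 14550 genes. With those 5 genes put back, 107 genes met the thresholds, or 0.735% of the array. With another background correction (normexp), the rule kept 47 genes, 44 of them among the 105. The members were thus chosen by their measured signals in these arrays, and their distance from B cells and pDC is a description and received no test.

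The data comprised 17 arrays of a custom ovine design, each hybridised with a single labelled RNA. B cells (4 arrays) and MP (3 arrays, sorted by CD14) came from spleen, and pDC (3 arrays) came from blood. The XCR1-negative dendritic cells (cDC2, 3 arrays) and the XCR1-positive ones (cDC1, 1 array) were sorted from low density blood cells of several sheep, with high CADM1 and low CD172 for cDC1 and the opposite levels for cDC2. MoDC (3 arrays) were 3 separate in vitro cultures grown with GM-CSF, which the study's text describes as started from bone marrow cells and the deposited file names call BMDC. RNA from different animals was mixed where a sort gave too little, and the file names of cDC2 replicate 2 and of the cDC1 array carry the word Pool, so that the spread between replicates may leave out part of the spread between animals. In such bulk samples, fewer cells of a type and less RNA per cell cannot be told apart.

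The arrays lay on 4 slides. Slides 1, 2 and 3 each held the same-numbered replicate of B cells, pDC, MP and MoDC, whereas slide 4 held B replicate 4 together with all cDC2 and cDC1 arrays and was read with a newer software version. A comparison of cDC2 with MP or MoDC is therefore linked across slides by 1 B array alone. MoDC replicate 3 correlated with the other MoDC arrays at 0.866 or more, the lowest value within a subset, and results on MoDC are given with and without it where it matters. The B cell marker *CR2*, a complement receptor, read 4.20 to 4.25 on the B arrays and lower on all others. The study's text judges it likely that B cells contaminated the sorted pDC, and probable that pDC contaminated the sorted cDC2. The cDC1 array carried *XCR1*, *CLEC9A* and *CADM1* at 2.63, -1.31 and 2.44. The array held 4 granulocyte markers (*BAC5*, *CATHL3*, *LTF* and *SC5*), which summed to between 6.05 and 10.9 in MoDC, to between -21.1 and -2.66 in MP and to between -17.7 and -1.62 in cDC2.

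Macrophages and conventional dendritic cells both take up particles, sense microbes, secrete chemokines and present antigen. pDC are a dendritic cell subset that is specialised in type I interferon secretion and that shares several regulators with B cells. The member genes are common to MP, MoDC and both conventional dendritic cell subsets and lower in pDC and B cells.

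Of the 105 member genes, 3 carried a single symbol. These were *CXCL8*, which encodes the neutrophil chemoattractant interleukin 8, *LGALS1*, which encodes the galactoside-binding lectin galectin 1, and *ID2*, which encodes an inhibitor of basic helix-loop-helix transcription factors that is known for its role in dendritic cell development. A further probe matched 2 loci (NM_001009425 in the files) and was not named. Another 5 members carried a number of Ensembl form without a symbol, and 96 carried only the identifier of an expressed sequence. This follows the array, on which 455 of 15060 probes (3.02%) had a symbol. Unnamed members are called by the identifier the files give.

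As most members have no symbol, the 60-base probes identify them. The first 3 below belong to the named members. DY482156 and EE807810 had the widest gaps beside *CXCL8*. DY493982 and ENSG163220 form a couple in which capitals mark the 14 bases where the end of the first overlaps the start of the second, with 13 of them identical. ENSG143546 and DY486945 were, among the myeloid subsets, highest in MoDC and lowest in cDC2 and cDC1. The remaining probes belong to members with the largest differences between subsets. The sequences are those of the deposited files, and no genome positions were used here.
CXCL8: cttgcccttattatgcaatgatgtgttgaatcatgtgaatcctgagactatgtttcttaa
LGALS1: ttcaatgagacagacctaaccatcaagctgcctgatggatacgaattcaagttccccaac
ID2: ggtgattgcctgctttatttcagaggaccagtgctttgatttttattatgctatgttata
DY482156: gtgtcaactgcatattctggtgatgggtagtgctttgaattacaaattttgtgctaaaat
EE807810: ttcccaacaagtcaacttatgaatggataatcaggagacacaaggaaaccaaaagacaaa
DY493982: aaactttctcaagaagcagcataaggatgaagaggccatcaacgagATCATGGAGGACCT
ENSG163220: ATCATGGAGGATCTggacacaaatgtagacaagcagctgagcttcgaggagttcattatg
ENSG143546: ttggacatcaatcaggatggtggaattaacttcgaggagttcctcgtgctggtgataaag
DY486945: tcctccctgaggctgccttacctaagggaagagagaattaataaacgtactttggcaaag
FE024085: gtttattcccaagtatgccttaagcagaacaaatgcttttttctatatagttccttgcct
EE755805: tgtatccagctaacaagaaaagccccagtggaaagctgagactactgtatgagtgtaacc
Y09830: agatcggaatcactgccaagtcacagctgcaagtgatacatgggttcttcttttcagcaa
CF118634: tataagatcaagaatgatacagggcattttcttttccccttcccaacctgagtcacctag
AM492193: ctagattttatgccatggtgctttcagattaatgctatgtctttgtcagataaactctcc
DY479054: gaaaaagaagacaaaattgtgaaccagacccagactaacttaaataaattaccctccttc
EE833715: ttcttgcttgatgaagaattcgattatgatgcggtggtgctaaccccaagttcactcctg
EE840202: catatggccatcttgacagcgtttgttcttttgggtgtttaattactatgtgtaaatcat
DY502913: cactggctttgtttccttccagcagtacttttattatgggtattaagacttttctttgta

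The gap of the members ranged from 1.01 to 4.33 with a median of 1.74, a 3.34-fold distance between the lowest myeloid array and the highest array of B cells and pDC. In all, 39 members had a gap of at least 2 and 13 a gap of at least 3. Their median level was 1.17 in MP, 1.34 in MoDC, 0.26 in cDC2 and 0.10 on the cDC1 array, against -3.45 in B cells and -3.68 in pDC. The lowest of the myeloid arrays was most often the single cDC1 array (33 members), and the highest array outside was most often pDC replicate 3 (37 members) or B replicate 4 (26 members). Most members were not silent outside the myeloid subsets. Their probes were well above background on all B arrays for 65 members and on all pDC arrays for 64, whereas 5 members were at background on all 7 of these arrays. The members' probes had a median GC content of 40.0% (35.0 to 55.0%), beside 43.3% (16.7 to 81.7%) over all genes of the array.

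**Figure D1:**
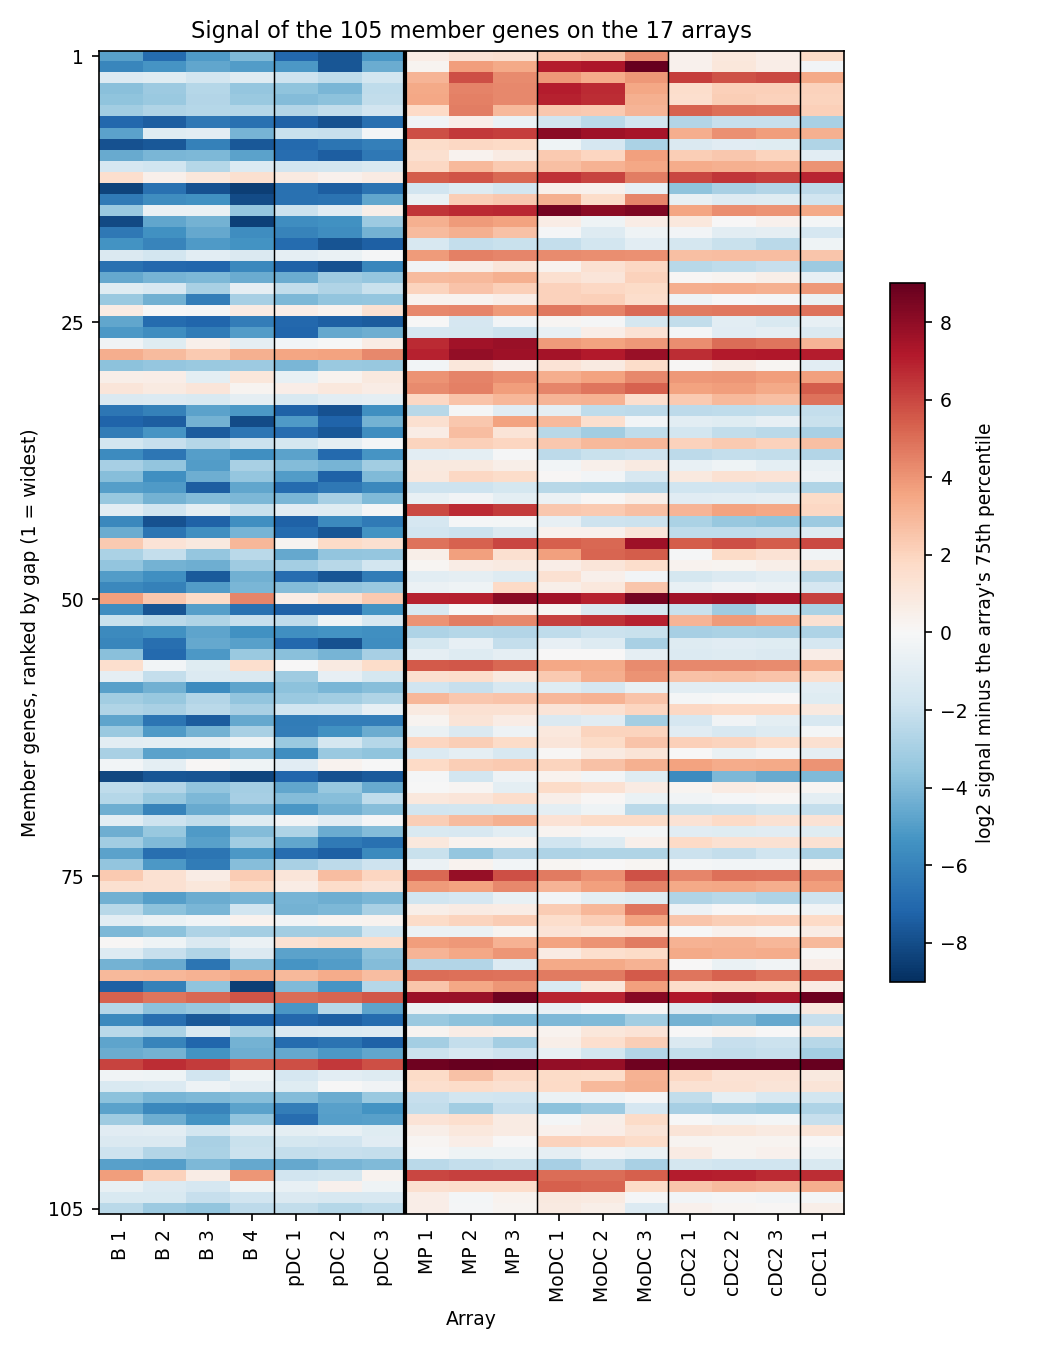
Signal of the 105 member genes (rows, ranked by gap) on the 17 arrays (columns), as log2 signal minus the 75th percentile of the array. The thick line separates the 7 arrays of B cells and pDC from the 10 myeloid arrays. The member median lies at -3.45 in B cells and -3.68 in pDC and between 0.10 and 1.34 in the myeloid subsets.

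The named members differed in how evenly the myeloid subsets expressed them. *CXCL8* was the most uneven of all 105. It read -5.88, -5.33, -4.64 and -5.01 on the B arrays and -5.20, -7.69 and -4.44 on the pDC arrays, well above background on 2 and 1 of them. It read 0.23, 3.77 and 3.44 in MP, 7.04, 7.30 and 9.20 in MoDC, 0.42, 1.04 and 0.60 in cDC2 and -0.25 in cDC1. The MoDC arrays thus lay above all others, and the first MP array lay just below the cDC2 arrays. The subset means spanned 8.10 on the log2 scale from cDC1 to MoDC, the widest span among the members.

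*LGALS1* was bright and nearly level. Its signal was 1.52, 0.44, 1.02 and 1.41 on the B arrays and 0.78, 0.42 and 0.71 on the pDC arrays. It was 5.42, 5.69 and 5.16 in MP, 6.47, 6.10 and 4.62 in MoDC, 6.0, 6.45 and 6.25 in cDC2 and 6.86 in cDC1. The order of the means was MP, MoDC, cDC2 and cDC1, and the MoDC arrays overlapped those of MP and cDC2. Against B cells, the mean was 20.01-fold higher in MP and 54.5-fold higher on the cDC1 array.

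*ID2* read 1.09, 0.79, 1.06 and 0.27 on the B arrays and 0.62, 0.94 and 0.64 on the pDC arrays. It read 4.26, 4.53 and 3.79 in MP, 4.40, 4.81 and 5.33 in MoDC, 3.60, 3.78 and 3.39 in cDC2 and 5.44 in cDC1. The cDC1 array was the highest and the cDC2 arrays were the lowest of the myeloid ones, without overlap with MoDC. The means in the myeloid subsets were between 6.90-fold (cDC2) and 24.9-fold (cDC1) above B cells.

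Among the unnamed members, DY482156 had the widest gap, 4.33. It read between -6.95 and -3.97 on the B arrays and between -7.66 and -5.21 on the pDC arrays. Its signal was 0.69, 1.27 and 1.43 in MP, 2.45, 2.62 and 4.10 in MoDC, 0.36, 0.95 and 0.56 in cDC2 and 1.75 in cDC1. No pDC array was well above background, so that the MoDC mean was at least 317-fold and the cDC2 mean at least 58.7-fold higher than in pDC. For these bounds, each pDC array entered with the higher of its own signal and its lowest signal well above background.

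EE807810 (gap 4.13) and FE024085 (gap 3.57) shared a different order, with cDC2 highest. EE807810 read 6.21, 5.76 and 5.97 in cDC2, against 3.06, 5.79 and 4.29 in MP, 3.88, 3.36 and 3.88 in MoDC and 3.44 in cDC1. FE024085 read 5.34, 4.95 and 4.89 in cDC2, against 1.82, 4.60 and 2.90 in MP, 2.43, 2.38 and 3.08 in MoDC and 2.11 in cDC1. In both, the second MP array was the highest of MP.

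The overlapping probes DY493982 and ENSG163220 differed by a median of 0.09 and by at most 0.44 over the 17 arrays. ENSG163220 read 3.41, 4.47 and 4.30 in MP, 7.08, 6.74 and 3.49 in MoDC, 1.56, 2.16 and 2.12 in cDC2 and 2.06 in cDC1. MoDC replicate 3 lay more than 3 below the other MoDC arrays, within the range of MP. Both probes count as members, and because of the overlap they are not independent measurements.

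ENSG143546 read 5.79, 6.36 and 6.22 in MP, 8.14, 7.64 and 7.45 in MoDC, 3.25, 4.08 and 3.80 in cDC2 and 3.20 in cDC1. DY486945 read 6.40, 6.75 and 6.82 in MP, 8.61, 8.14 and 8.44 in MoDC, 3.52, 4.22 and 4.05 in cDC2 and 3.39 in cDC1. The order MoDC, MP, cDC2 held without overlap in both. The B arrays were split, as ENSG143546 read -1.12 and -0.96 on replicates 2 and 3 but -4.81 and -4.18 on replicates 1 and 4.

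**Figure D2:**
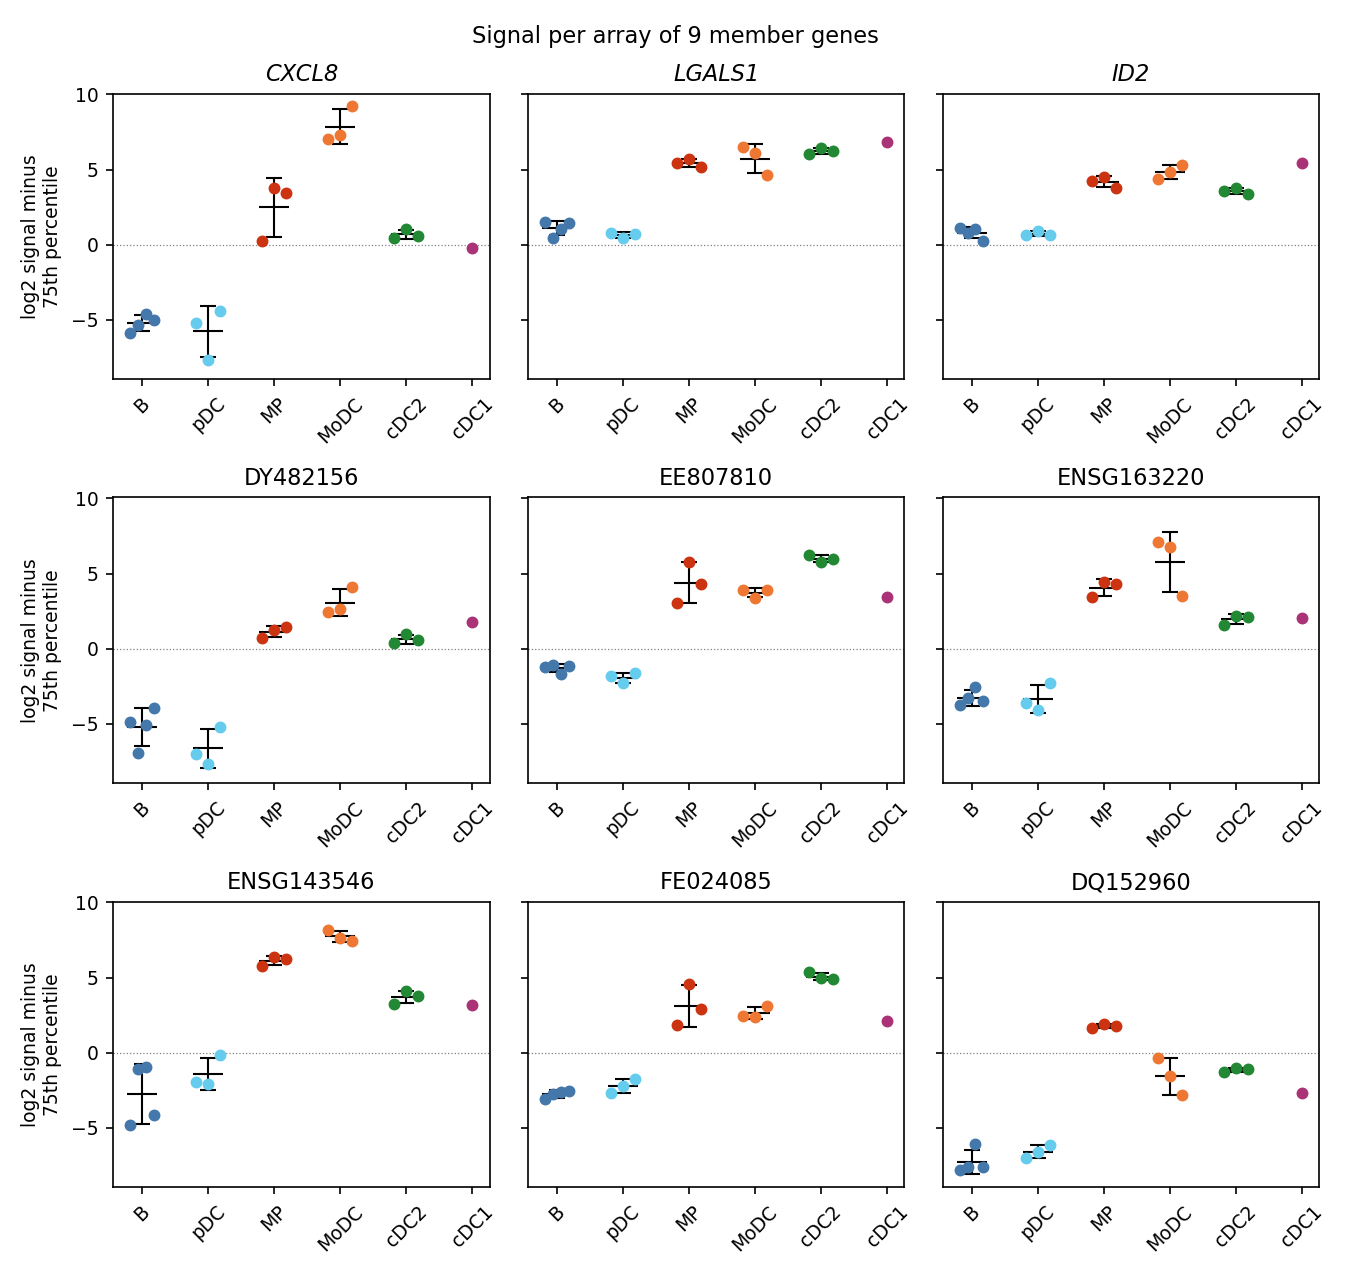
Signal per array (points; log2 signal minus the 75th percentile of the array) of 9 member genes in the 6 subsets, with the subset mean ± SD where there is more than 1 array. *CXCL8* spans 8.10 between the myeloid means, whereas *LGALS1* and *ID2* span 1.44 and 1.85.

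At the edge of the rule, the members with the smallest gaps were EE780023 (1.01), EE751340 (1.03), DY487013 (1.03), DY479054 (1.04) and ENSG100364 (1.04). The genes just outside were DY494205 (0.98), CD289247 (0.97), FE024018 (0.97), CF115954 (0.95) and DY479894 (0.94). Probes of identical sequence show how finely this edge is drawn. Of the members, 6 had a second probe with the same 60 bases on the array, in 5 cases under the same gene identifier. The copies differed by a median of 0.01 to 0.23 over the 17 arrays and by up to 1.49 on a single array, and 4 of the 6 copies had a gap of at least 1. The copy of ENSG100364 had a gap of 0.66 and the copy of EE760197, filed as BL_OCA_X000501, a gap of 0.90 beside 1.14 for the member.

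The spread among the myeloid subsets was then described over all members. The means of the 4 subsets spanned a median of 2.01 on the log2 scale, beside 1.24 over the 7973 genes well above background on the 10 myeloid arrays. The span was under 1 for 23 members and at least 3 for 28. EE833715 was the most level member, with means within 0.40 or 1.32-fold. The highest mean was in MoDC for 47 members (44.8%, beside 26.4% of the 7973 genes) and in MP for 30 (28.6% beside 26.9%). It was in cDC2 for 9 members (8.57% beside 16.0%) and on the cDC1 array for 19 (18.1% beside 30.7%). Conversely, 49 members had their lowest mean on the cDC1 array and 12 in MoDC, beside 19.7% and 40.9% of the 7973 genes.

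**Figure D3:**
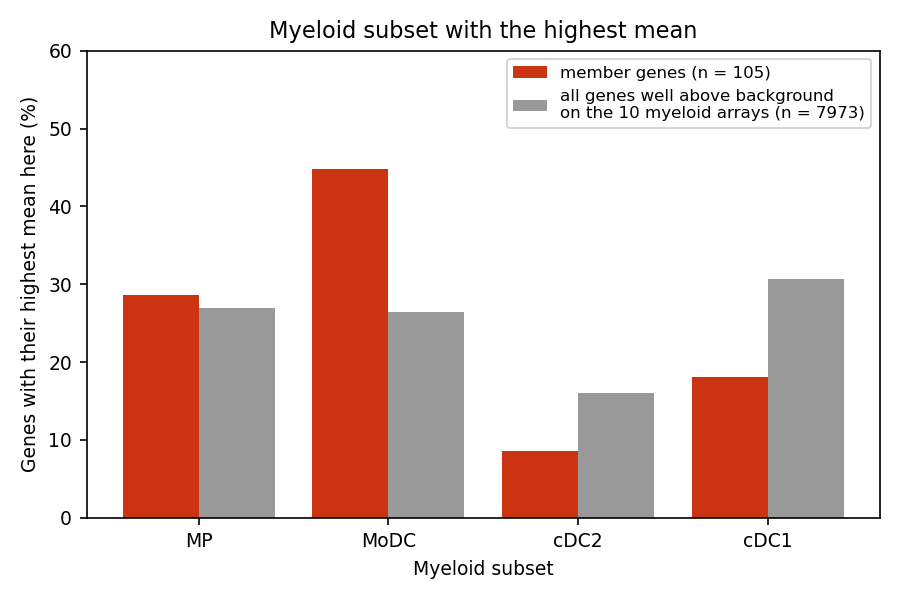
Share of genes (%) with their highest mean in each myeloid subset, for the 105 member genes and for the 7973 genes well above background on the 10 myeloid arrays. MoDC hold 44.8% of the members and 26.4% of those genes.

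To ask how far the shared genes differed between the myeloid subsets themselves, the 3 replicated subsets were compared in pairs with limma, and a gene was called at an adjusted p under 0.05 and at least 2-fold. This contrast was not used to choose the members. In MP against MoDC, 34 members were called (32.4%), beside 25.9% of the 11310 genes tested. Of these, 14 were higher in MP and 20 in MoDC, and the background was 14.4% and 11.4%. The median difference was -0.29 over the members and 0.22 over all genes, in MP minus MoDC. Over all genes, this median was 0.07 with quantile normalization and 0.03 with the authors' table, and the split of the calls went from 1634 higher in MP and 1294 in MoDC to 1335 and 1324 and to 1205 and 1269. The members' median was -0.27 and -0.31 in these.

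The members higher in MoDC were led by EE755805 and *CXCL8*. EE755805 read -2.62, -2.61 and -1.24 in MP but 3.40, 3.43 and 3.12 in MoDC, 44.4-fold higher (log2 difference -5.47, SE 0.61, limma adjusted p = 1.8036e-05). In cDC2 it lay between these at 0.02, -0.56 and -0.31. *CXCL8* was 41.1-fold higher in MoDC than in MP (-5.36, SE 0.92, limma adjusted p = 0.0006554), and the difference was -6.81, -3.52 and -5.76 within slides 1, 2 and 3. AF395335 (18.05-fold), CD288138 (7.39-fold) and AF057716 (6.61-fold) followed. In each of these 5, the MoDC arrays lay above the MP arrays, except that the first MoDC array of CD288138 (3.66) was just under the second MP array (3.68).

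The members higher in MP were led by Y09830, which read 0.69, 2.80 and 1.14 in MP and -2.46, -3.10 and -2.28 in MoDC, a 17.8-fold difference (4.16, SE 0.63, limma adjusted p = 0.0002559). CF118634 read 5.92, 6.68 and 6.27 in MP and 2.45, 2.38 and 2.69 in MoDC, 13.8-fold higher in MP. DY488193 (11.7-fold), DY476306 (10.95-fold) and DQ152960 (10.1-fold) were the next. Each of these 5 was also lower in cDC2 than in MP on all arrays.

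All 34 called members had the same direction within each of slides 1, 2 and 3. These are the arrays that made the calls, so that this is no separate support. With the slide as a block, 39 members were called, these 34 among them, beside 30.2% of all genes. *LGALS1* (-0.31, SE 0.42) and *ID2* (-0.65, SE 0.32) were not called in this pair. Of the calls, 26 were also made without MoDC replicate 3, in which 32 members were called (30.5%), beside 28.0% of all genes. Without the second MoDC array, 21 members were called, a lower share than over all genes (22.4%), and without the first, 28 members (26.7%), beside 29.9% of all genes. The 4 granulocyte markers were all called higher in MoDC than in MP. Of the T and NK cell markers, *CD3D* (5.29) and *CD3E* (3.35) were called higher in MP and *GNLY* (-3.71) in MoDC, as log2 differences of MP minus MoDC. The summed level of that list was -18.2 to -14.7 in MP, -25.2 to -20.3 in MoDC, -8.40 to -5.47 in cDC2 and -10.1 in cDC1. It was highest in pDC, at 5.93 to 6.66, and lay at -9.31 to -6.11 in B cells. The erythroid gene *CA1* was well above background on the MoDC arrays alone, and *HBB* on all pDC, cDC2 and cDC1 arrays, on 1 B array and on no MP or MoDC array. The part of any of these markers' cells in the members' differences was not tested.

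In MP against cDC2, 19 members were called (18.1%), beside 11.3% of all genes and 9.27% of the 7882 genes. Of the 19, 17 were higher in MP and 2 in cDC2. The background over all genes was 5.02% and 6.24% in these directions. AM492193 led with -0.08, -1.64 and -0.46 in MP and -5.69, -4.04 and -4.55 in cDC2 (16.4-fold, log2 difference 4.03, SE 0.49, limma adjusted p = 0.0001642). Y09830 (12.5-fold), DY476306 (11.9-fold), CU653519 (10.5-fold) and DQ152960 (7.57-fold) were the next. FE024085 (3.87-fold) and CO202437 (2.55-fold) were higher in cDC2, without overlap of the arrays. *CXCL8* (1.80, SE 0.92, adjusted p = 0.2221 by limma) was not called unless the first MP array was left out, with 2.92 and an adjusted p of 0.04473.

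These calls rest on arrays of different slides. With the slide as a block, 1 member was called, EE779647 (6.51-fold higher in MP without the block), and 0.866% of all genes. The slide and the subset can be separated here through B replicate 4 alone, which leaves such a fit little precision. The members' median difference was 0.40 without the block and 0.88 with it. In CU653519 the log2 difference was 1.66 with the block (adjusted p = 0.8481) and 3.39 without it, whereas Y09830, DY476306 and DQ152960 stood at 3.50, 3.48 and 2.48. Between 11 and 28 members were called as single arrays were left out, with 12 (beside 6.69% of all genes) and 11 (beside 5.69%) without cDC2 replicates 1 and 3. With normexp, the authors' table and the arrays of the pair alone, 30, 35 and 37 members were called, beside 7.27%, 13.9% and 20.8% of all genes. Of the T and NK cell markers, *CD247* and *GNLY* were called higher in cDC2 than in MP, as was 1 of the 2 erythroid genes. The part of these markers in the result was not tested.

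In MoDC against cDC2, 36 members were called (34.3%), beside 33.5% of all genes and 29.0% of the 7882 genes. The directions were uneven, as 29 members were higher in MoDC and 7 in cDC2, beside 13.2% and 20.3% of all genes (1491 and 2293 genes). Over all genes this split was nearly even with quantile normalization, at 1623 and 1718, and with the authors' table, at 1431 each, whereas the members' split was 29 to 11 and 31 to 10. The median difference was 0.59 over the members and -0.32 over all genes.

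Between MoDC and cDC2, *CXCL8* differed 143-fold in favour of MoDC (7.16, SE 0.92, limma adjusted p = 4.799e-05), and 7.43 with the slide as a block (adjusted p = 0.007362). DY486945 was 22.1-fold and ENSG143546 16.4-fold higher in MoDC (limma adjusted p = 0.0004882 and 0.00258), but with the block they stood at 2.46 and 2.15 on the log2 scale with an adjusted p of 0.1468 and 0.3361. AM492193 was 21.7-fold higher in MoDC and held with the block (4.04, adjusted p = 0.01381). *ID2* was 2.39-fold higher in MoDC (limma adjusted p = 0.00732), 0.55 on the log2 scale with the block (adjusted p = 0.5433). DY496264 was 16.5-fold higher in MoDC, 1.78 on the log2 scale with the block (adjusted p = 0.3509).

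The members higher in cDC2 were FE024085 (5.40-fold), EE779887 (4.97-fold), EE807810 (4.84-fold), DY502913 (4.05-fold) and CD286878 (3.40-fold), with 2 more below these. CD286878 was the brightest member, with a mean of 9.55 over the myeloid subsets. It read 9.96, 9.81 and 9.99 in cDC2, 11.2 in cDC1 and 7.90, 7.81 and 8.75 in MoDC, and it held with the block (-2.53, adjusted p = 0.00929). With the block, 17 of the 36 calls remained, 16 of them higher in MoDC, beside 8.33% of all genes. Without MoDC replicate 3, 37 members were called (35.2%), 32 of them shared, beside 35.4% of all genes. Of the granulocyte markers, *CATHL3* and *LTF* were called higher in MoDC than in cDC2. Of the T and NK cell markers, *CD3D* (-6.74), *CD3E* (-4.85) and *CD247* (-3.87) were called higher in cDC2, as log2 differences of MoDC minus cDC2. Of the 2 erythroid genes, 1 was called higher in MoDC and 1 in cDC2. The part of all these markers in the result was not tested.

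**Figure D4:**
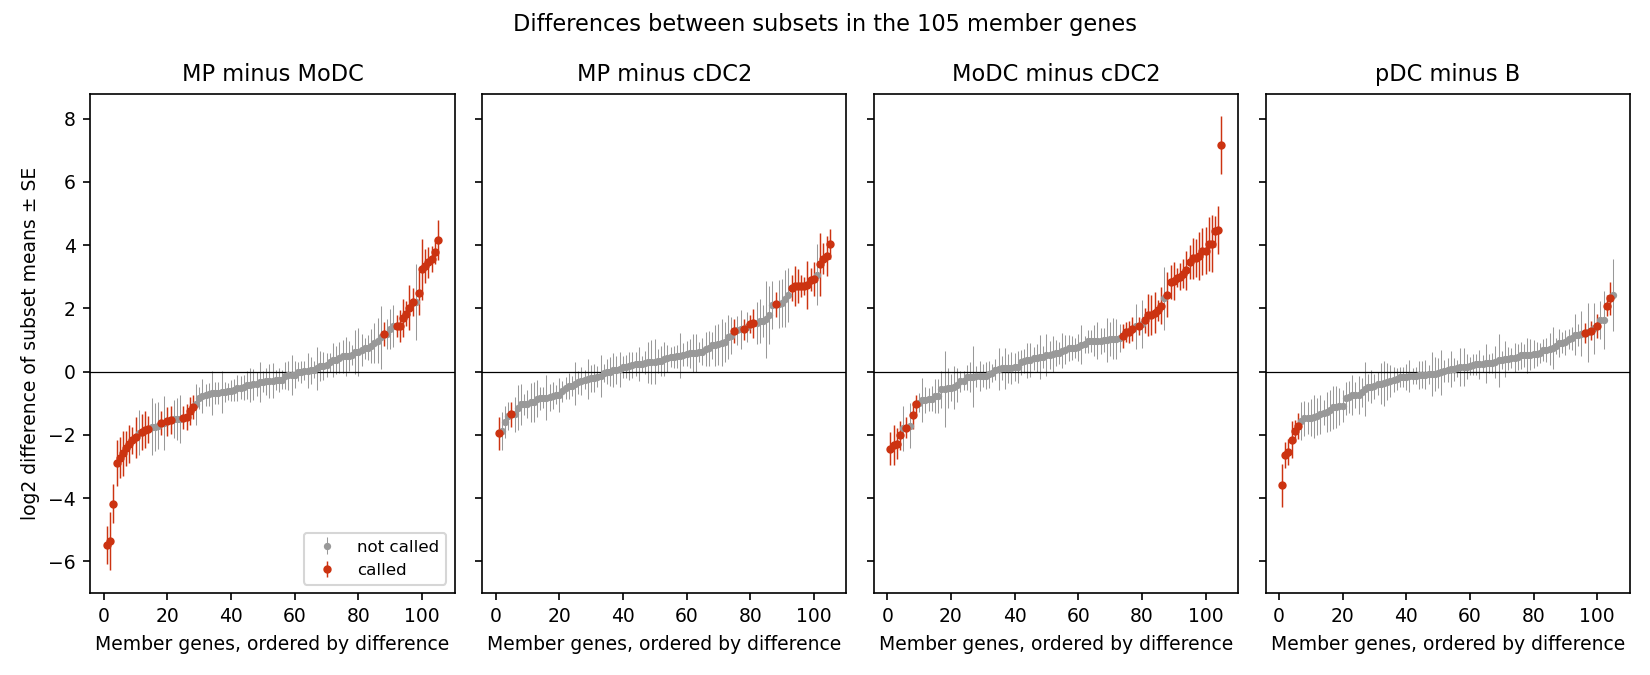
Difference of subset means (log2) ± SE of the 105 member genes in 4 pairs, ordered within each pair; red points were called by limma at an adjusted p under 0.05 and at least 2-fold. Calls numbered 34, 19, 36 and 11 from left to right, and in MoDC minus cDC2 29 of the 36 lie above 0.

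Over the 3 pairs, 58 members were called at least once, or 47 in none, beside 43.7% of all genes called at least once. Members called higher in MoDC than in both MP and cDC2 numbered 12 (11.4%, beside 7.54% of all genes), among them *CXCL8*, EE755805, AF395335, CD288138, AF057716 and DY495996. Those higher in MP than in both others numbered 8 (7.62%, beside 1.87%), among them Y09830, CF118634, DY488193, DY476306, DQ152960 and EE770959. FE024085 alone was higher in cDC2 than in both others (0.952%, beside 3.70%). With the slide as a block, 11 members were higher in MoDC than in both others, and 0 were higher in MP or in cDC2 by limma. No share of all genes was counted for this, so that these numbers have no background. In that fit, 1 of the 19 calls in MP against cDC2 and 17 of the 36 in MoDC against cDC2 remained. FE024085 had an adjusted p of 0.4534 against MP and 0.1236 against MoDC in that fit. The pairs share arrays, so that these counts are not independent of each other.

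Among the cells outside, pDC and B cells were compared in the same fit. In all, 11 members were called (10.5%), beside 9.24% of all genes and 7.94% of the 7882 genes. Of the 11, 5 were higher in pDC and 6 in B cells, beside 4.43% and 4.81% of all genes. With the slide as a block, 12 were called, 10 of them shared, beside 10.3% of all genes. The highest B or pDC array bounds the gap, but the order of B cells and pDC does not enter the rule. DY479054 read 3.74, 2.04, 0.65 and 3.96 in B cells and -1.75, -1.59 and 0.33 in pDC, 12.1-fold higher in B cells (log2 difference -3.60, SE 0.67, limma adjusted p = 0.003155). Its difference within slides 1, 2 and 3 was -5.48, -3.63 and -0.32. DY502913 was 6.19-fold higher in B cells, with 2 of 3 pDC arrays well above background. NM_001009425, EE779887 and EE781837 were also called higher in B cells (limma adjusted p = 0.001143, 0.03222 and 0.003155), but none of their pDC arrays was well above background. Against the lowest measurable pDC signal, NM_001009425 was at least 1.89-fold and EE779887 at least 2.66-fold higher in B cells. No fold is given for EE781837, whose B mean of -5.46 lay under that signal. With the slide as a block, EE779887 was not called (adjusted p = 0.07635).

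Higher in pDC were EE833715 (4.98-fold, with 3 of 4 B arrays well above background), CF118562 (4.25-fold), EE768818 (2.72-fold), EE780152 (2.44-fold) and DY483204 (2.33-fold). EE833715 read -2.92, -2.38 and -1.89 in pDC and -3.58, -5.19, -6.29 and -3.80 in B cells. CF118562 was bright in both, at 1.36, 1.69 and 1.67 in pDC and at 0.11, -0.37, -1.31 and -0.50 in B cells. All 11 calls had the same direction within slides 1, 2 and 3, on arrays that also made the calls, which is no separate support. Of the 11, 10 had a signal well above background on all arrays of the higher subset. Without pDC replicate 3, 7 members were called (6.67%), beside 7.0% of all genes, and without B replicate 3, 16 members (15.2%), beside 9.02%. The members' share was also below that of all genes with normexp background correction (2.86% beside 5.79%), with the authors' table (6.67% beside 10.7%) and with the arrays of the pair alone (6.67% beside 8.91%). *CXCL8*, *LGALS1* and *ID2* were not called, with differences of -0.56, -0.46 and -0.09. Of the 4 T and NK cell markers tested, *CD3E*, *CD247* and *GNLY* were called higher in pDC than in B cells, as was 1 of the 2 erythroid genes. The part of these markers in the members' differences was not tested.

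The cDC1 array was set against the 3 cDC2 arrays of the same slide, without a test as it has no replicate. It lay at least 2-fold above the highest cDC2 array for 10 members (9.52%), beside 3.31% of the 7973 genes, and at least 2-fold below the lowest for 13 (12.4%), beside 4.26%. The members furthest above were EE840202 (1.69 in cDC1 against -1.0, -0.94 and -0.83 in cDC2), DY519699, DY486430, EE783350 and DY510201, with differences from the cDC2 mean of 2.61, 2.25, 2.22, 2.15 and 1.87. *ID2* followed at 1.85. The members furthest below were DY502913 (0.10 against 3.40, 3.30 and 3.35), NM_001009425 (-0.93 against 2.19, 2.41 and 2.04), FE024085, EE807810 and DY495996, at -3.26, -3.14, -2.95, -2.54 and -2.11. *CXCL8* and *LGALS1* differed by -0.94 and 0.63. *BATF3*, which the rule leaves out, read 6.24 on the cDC1 array and 2.41 on average in cDC2.

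**Figure D5:**
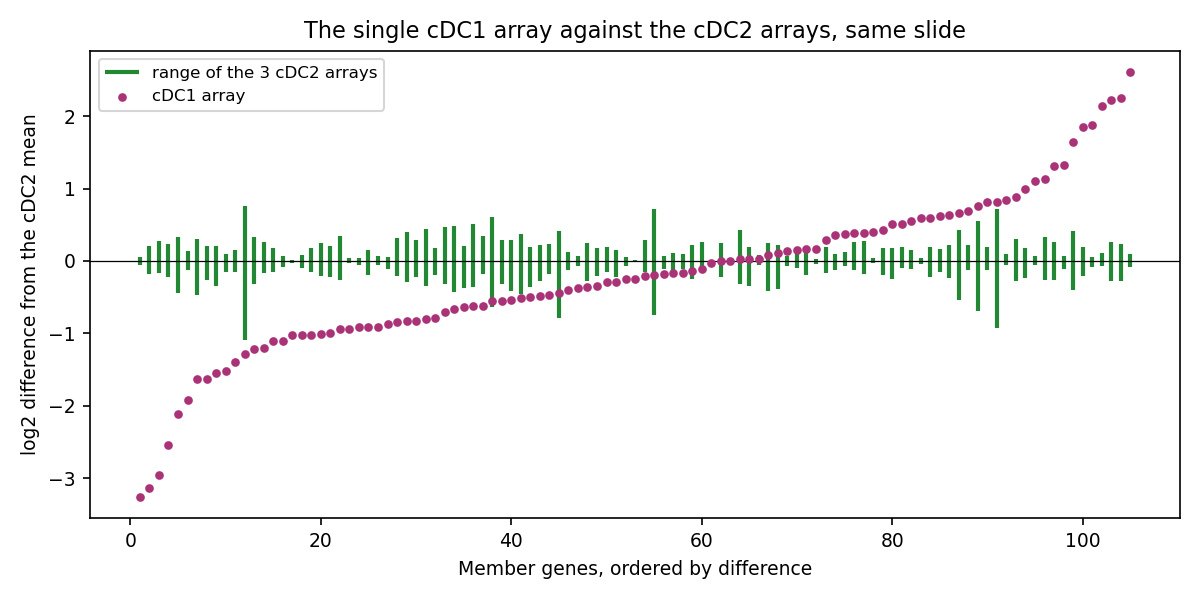
Signal of the single cDC1 array (points) minus the mean of the 3 cDC2 arrays (log2) for the 105 member genes in ascending order; bars give the range of the cDC2 arrays around their mean. The points run from -3.26 (DY502913) to 2.61 (EE840202), and 10 and 13 members lie at least 2-fold outside the cDC2 range above and below.

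Named genes of phagocyte pathways give the surroundings of the named members. *CXCL8* was the only member among 15 cytokine and chemokine genes on the array, 12 of which were tested. In MP against MoDC, 6 of these were called higher in MoDC (*CXCL8*, *IL1A*, *IL1B*, *IL6*, *MIF* and *VEGFA*) and 2 in MP (*CXCL10* and *IL10*), beside 11.4% and 14.4% of all genes. In MoDC against cDC2, 5 were called higher in MoDC (*CXCL8*, *IL1A*, *IL1B*, *IL15* and *IL18*) and 0 in cDC2 by limma, beside 13.2% and 20.3% of all genes. This pair lies across slides, and with the slide as a block the calls over all genes fell from 33.5% to 8.33%. The inflammatory cytokines *IL1A* and *IL1B* were no members, with gaps of -3.32 and -0.55, as they were low in both conventional dendritic cell subsets. *IL18* had a gap of 0.91, just outside. *CXCL1* was high in all 6 subsets, with means from 7.41 to 7.79.

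*ID2* was the only member among 8 myeloid transcription factors, besides *BATF3* with a gap of 1.13. *IRF8* (gap -4.45) and *TCF4* (gap -8.10), regulators of dendritic cell and pDC development, did not divide the subsets in this way. Without MoDC replicate 3, the gap of *TCF4* was -4.41. *IRF8* was higher in cDC1 (6.44) than in pDC (mean 4.85) and B cells (2.93), with cDC2 at 4.29 and MoDC lowest at 1.67. *TCF4* was highest in pDC (1.44), with B cells at 0.85 and cDC2 at 0.72, and low in MoDC (-3.67, or -2.37 without replicate 3) and in cDC1 (-2.41). The lists of antigen presentation (2 genes on the array), Fc and complement receptors (4), lysosomal proteins (1), oxidative burst (2), cytokine and growth factor receptors (12), adhesion (3), lipid handling (10) and extracellular proteases (2) held 0 members. Of the pattern recognition receptors (3 genes), the lipopolysaccharide co-receptor *CD14* had a gap of 2.89 and *TLR2*, a receptor for bacterial lipoproteins, of 0.81. Lysozyme *LYZ* missed with a gap of -0.16, as MoDC replicate 3 (1.63) did not clear the B arrays. Without that array its gap was 1.66.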

How the data were processed

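RNA of 17 sheep samples was measured on 17 one-colour Agilent arrays. The authors read the spots with Feature Extraction (10.7.3.1 for 12 arrays and 10.10.1.1 for 5, per the file headers), and the deposited intensity is background-corrected on a linear scale and not normalized between arrays. Deposited flags of 0 or 1 per spot mark signals well above background and outlier spots. The authors also deposited a series table of log2 values, for which the submitters' processing notes name limma and no further step is given in the sources used here; its rows were matched to probes by alphabetical probe name, in which order all 17 columns correlated best with their own array (r from 0.969 to 0.988). It served as an alternative. Groups came from the labels.

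Values are log2 intensity minus the 75th percentile of the array, with replicate spots of a probe averaged, with the probe of highest sum per gene. Of 15744 spots per array, 536 were controls and none was saturated. The 75th percentile was 194 to 688 units, and the share of spots well above background, which with the number of arrays limits the precision, was 61.1 to 80.2%. The member rule used all spots. For tests, 273 outlier spots were left out, and genes were kept when well above background on every array of 1 subset, which left 11310 genes and all 105 members; a fit of group means to all 17 arrays with limma 3.58.1 in R 4.3.3 then compared MP, MoDC and cDC2 in pairs and pDC with B cells (Benjamini-Hochberg per pair, adjusted p under 0.05 and at least 2-fold). It was tested on simulated data. The cDC1 array entered no test. Same-numbered MP and MoDC arrays share a slide and deviated together (r 0.144 to 0.248), as did B cells and pDC (0.283 to 0.327). The highest value, 0.448, was between pDC replicate 3 and B replicate 4, which lie on different slides.

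Alternatives were quantile normalization, normexp (offset 50, on median intensities), the authors' table, other thresholds, no filter, slide or replicate blocks, the arrays of a pair alone and each array left out. Names came from the files or from RefSeq accessions (ARS-UI_Ramb_v3.0, names only). Members named are those with a symbol, the 10 widest and 5 narrowest gaps, up to 5 called members per pair and direction, and the 5 highest and lowest on cDC1; EE779647, EE760197 and the other members higher in 1 subset than in both others, and the list genes that are no members, were named after their values were seen. The members, gene lists and rules were chosen with earlier results of these data known. P-values measure the spread between these samples.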

Additional observations from a re-analysis of the deposited data

Results flagged for a closer look

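Among the 45 named members, DQ152960 (probe A_70_P068106) was unusual in the 4 B arrays: its signal on the third, -6.09, stood apart from -7.83, -7.63 and -7.62 on the others by 0.882 of the whole range, above the 95% critical value of Dixon's ratio for 4 values. None of the 4 arrays was well above background for this probe. About 1 in 20 groups is picked out in this way by chance.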

How the results depend on the processing

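The number of genes meeting the member rule was 47 with normexp (44 of them members) and 93 with the authors' table (81 of them members). It was 335 without a gap, 166 with a 1.5-fold and 39 with a 4-fold gap. Within slides 1, 2, 3 and 4 alone it was 731, 835, 719 and 777, as fewer arrays have to be separated. With single arrays left out it was 105 to 152, highest without cDC1. By the form of the rule, leaving out an array can only keep or enlarge the list. Members called in MP against cDC2 numbered 30 with normexp, 35 with the authors' table, 37 with the arrays of the pair alone and 1 with the slide block. The shares of all genes were 7.27%, 13.9%, 20.8% and 0.866%. In MoDC against cDC2 they numbered 17 with the slide block, and in pDC against B cells 3, 7 and 7 with normexp, the authors' table and the arrays of the pair alone, beside 5.79%, 10.7% and 8.91% of all genes. With single arrays left out, 21 to 35, 11 to 28, 29 to 39 and 7 to 16 members were called in the 4 pairs in the order of the report, while 20.3 to 29.9%, 5.69 to 17.01%, 25.2 to 37.5% and 5.69 to 12.9% of all genes were. The members' share was above that of all genes in 15, 17, 15 and 16 of these 17 fits. Most of the fits leave out no array of the pair, and the fit without cDC1 repeats the main counts, so that they are not separate checks. With the replicate number as a block, the calls were 34, 24, 36 and 11, beside 27.6%, 15.3%, 36.6% and 7.89% of all genes. Over all genes, normexp turned the split in MP against cDC2 from 568 and 706 to 474 and 348.

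Some values changed sign. With normexp the gaps of Y09830, AM492193 and DY519699 were -0.3074, -0.7314 and -0.3427, and with the authors' table that of AM492193 was -0.1402. With the slide block, MoDC minus cDC2 was -0.173 in NM_001009425 and MP minus cDC2 was -0.1003 in *ID2*. Without the third MoDC array, MoDC minus cDC2 was -0.0907 in NM_001009425 and 0.0488 in *LGALS1*. MP minus MoDC in *LGALS1* was 0.0617 without the first MoDC array. In pDC minus B cells, *ID2* stood at 0.0103 without the first B array, and *CXCL8* at 0.1158 with normexp and 0.3962 without the second pDC array. With single arrays left out, these differences ranged from -0.0907 to 0.7968 (NM_001009425, MoDC minus cDC2), -0.8744 to 0.0488 (*LGALS1*, MoDC minus cDC2), -0.8615 to 0.0617 (*LGALS1*, MP minus MoDC), -0.262 to 0.0103 (*ID2*, pDC minus B cells) and -1.228 to 0.3962 (*CXCL8*, pDC minus B cells). The cause was not tested.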
